A study of Mus musculus with 27 samples.

Results

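Whole mouse embryonic stem cells labelled day 12 of Dicer loss were compared with whole cells of day 4. The comparison rests on 6 of the 27 libraries of the series, 3 in each group, chosen by their labelled compartment and day. The cells were an XY line (DTCM23/49) that carries a conditional Dicer allele and was cultured on gelatin with serum and leukemia inhibitory factor. Both groups had, by their labels, received 800 nM 4-hydroxytamoxifen, which deletes the part of Dicer that holds its RNase III domain, and Dicer-deficient colonies were expanded over the following days. Control cells were given ethanol, and none of the 6 libraries is labelled as such a control, so the 2 groups differ by label in time alone. RNA was selected for polyA tails and sequenced in directional libraries with paired reads of 100 bases. The labels call the 3 libraries of a group replicates without saying whether they came from separate cultures. Every p-value below therefore measures spread between libraries.

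Dicer cuts microRNA precursors into the mature, short RNAs that guide Argonaute proteins to sites in the 3′ UTR of mRNAs, where pairing with the seed of the microRNA lowers the stability and translation of the mRNA. Embryonic stem cells are dominated by the miR-290 cluster and related microRNAs, which share a seed and are known for holding down inhibitors of the G1 to S transition. Mouse embryonic stem cells without Dicer survive, proliferate slowly and differentiate poorly.

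The seeds that the target genes below are read against are shown first, each mature microRNA in lower case with bases 2 to 8 in capitals. The sequences are RefSeq's, on GRCm38.p6. The first 3 come from the miR-290 cluster on chromosome 7 and the next 2 from the miR-302 cluster on chromosome 3, and all 5 have the same seed.
mmu-miR-291a-3p: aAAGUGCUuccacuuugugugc
mmu-miR-294-3p: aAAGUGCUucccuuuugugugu
mmu-miR-295-3p: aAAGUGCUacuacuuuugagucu
mmu-miR-302b-3p: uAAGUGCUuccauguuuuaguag
mmu-miR-302d-3p: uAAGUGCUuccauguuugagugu
The seed of a miR-17 family member is the same run shifted by 1 base, and that of let-7, which is scarce in these cells, is unrelated.
mmu-miR-20a-5p: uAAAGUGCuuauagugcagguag
mmu-let-7a-5p: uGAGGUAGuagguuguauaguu

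Dicer1, the gene that the treatment targets, was high in the libraries labelled day 12 and low in those of day 4. Its levels were 16.7, 13.8 and 13.4 FPKM (a level per length of transcript and per amount sequenced) in the libraries labelled day 12, against 1.63, 1.71 and 0.876 FPKM in those of day 4. The groups did not overlap, and the ratio of their means was 10.4. The log2 change was 3.01 ± 0.17 (SE, limma adjusted p = 5.04e-05), and an exact 2-sided permutation test gave p = 0.1, the smallest that 3 against 3 libraries allow. That Dicer1 differs in this way was known when the groups were picked, so these p-values describe the difference and do not test it. Day 8 held 1.71 ± 0.173 FPKM and day 10 held 1.83 ± 0.124 FPKM (SD, n = 3 each), close to day 4. In the cytoplasmic fraction, which comes from other libraries, Dicer1 stood at 3.06 ± 0.366 FPKM on day 12 and 22.5 ± 1.18 FPKM on day 0 (SD, n = 3 each). Dicer1 in the whole cell libraries labelled day 12 therefore goes against their label, and every direction below is that of "the libraries labelled day 12" and not of a later time. The gene lies at chr12:104687742-104751952 in GRCm38, and a value for the whole gene does not separate the deleted exons from the rest.

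Replicate 3 of day 4 stood apart from the other 2 libraries of its group. Its correlations with them over log2 values were 0.921 and 0.942, below its correlations of 0.947 to 0.957 with the libraries labelled day 12. Replicates 1 and 2 of day 4 correlated with the libraries labelled day 12 at 0.965 to 0.97 and 0.954 to 0.956. By this measure replicate 3 was no nearer to those libraries than the rest of its group. Replicate 3 was the shallowest of the 6, with a relative depth of 0.721 where day 4 replicate 1 is 1, and the other 5 lay between 0.897 and 1.12. Ribosomal protein genes took 23.2% of its summed FPKM, against 16.9% to 19.8% in the other 5. Its value was nearer to the mean labelled day 12 than to the mean of the other 2 day 4 libraries for 59.6% of the 15086 genes tested. The first mean is of 3 libraries and the second of 2, so the second holds more noise, which raises this share. The part of replicate 3 in the results was not tested. The counts of each gene list, other than that of fibroblast growth factor signalling, are given with and without it. The libraries labelled day 12 were uniform, with correlations of 0.981 to 0.984.

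Among 15086 genes tested on the log2(FPKM + 0.5) scale, 1316 (8.72%) passed an adjusted p of 0.05, of which 844 (5.59%) rose and 472 (3.13%) fell in the libraries labelled day 12. The median log2 change of all genes was 0.06. Most changes were small: 84 genes were higher and 64 lower by at least 1 on the log2 scale. The replicates of the 2 groups did not overlap for 1311 of the 1316 genes, and did not overlap for 3727 of all genes tested (24.7%). The spread in this fit was estimated from 12 whole cell libraries, which include days 8 and 10. Replicates correlated at 0.983 to 0.985 on those days and at 0.921 to 0.978 on day 4. The pooled spread can therefore understate that of day 4. With the 6 libraries alone the count was 18 (0.119%), 14 higher (0.0928%) and 4 lower (0.0265%), and without day 4 replicate 3 it was 5033 (33.1%), 2441 higher (16.1%) and 2592 lower (17.1%). Of the 1316 genes, 1313 also passed in the same direction without that library. Gene list counts below are to be read beside 5.59% higher and 3.13% lower, or 16.1% and 17.1% without that library. The lists were written with earlier results of these data known, so a share above these is a description and no test. The majority of rises depended on scaling: 64.1% of the genes past the threshold were higher with the FPKM as deposited, 46.5% after median-of-ratios scaling and 46.2% after quantile normalization.

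**Figure D1:**
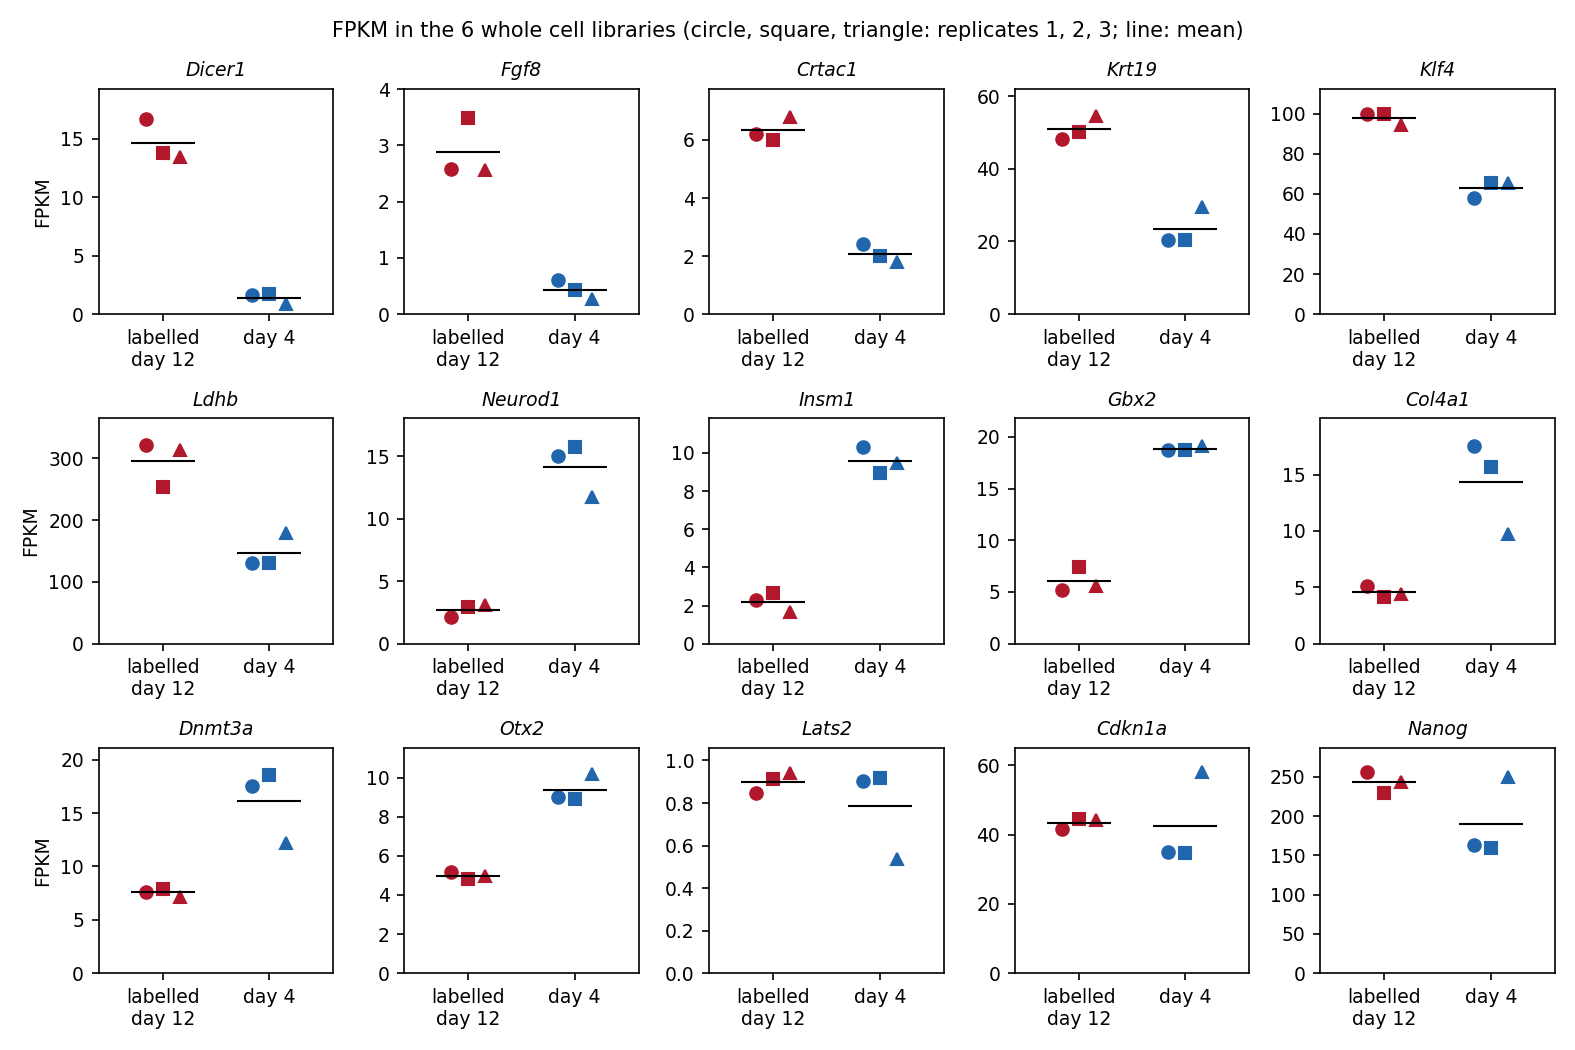
FPKM of 15 genes in each of the 3 libraries labelled day 12 (left, red) and the 3 of day 4 (right, blue), on linear axes from 0, with the mean as a line. In the first 12 panels the groups do not overlap, while those of Lats2, Cdkn1a and Nanog show groups that overlap, with day 4 replicate 3 (triangle) away from the other 2 libraries of day 4. For genes named as the largest rises and falls, groups that do not overlap were a condition.

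Of 100 named genes past the threshold, 55 stayed past it when each of the 6 libraries was left out in turn. The genes described below are among these unless a library whose removal ended the call is given. With the 6 libraries alone, 7 of the 100 passed, namely Dicer1, Neurod1, Insm1, Gbx2, Crtac1, Isg15 and linc1393, and the other 93 did not. Of these, Dicer1 was known beforehand to differ. With day 4 replicate 3 left out as well, 11 of the 100 lost their call. Groups that do not overlap were a condition for naming the largest rises and falls and the lncRNAs, and are no added support for them.

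Neurod1, a basic helix-loop-helix factor of neurons and pancreatic islets, had 2.10, 2.97 and 3.11 FPKM in the libraries labelled day 12, against 15, 15.7 and 11.7 FPKM in those of day 4. Insm1, a zinc finger factor of the same lineages, had 2.29, 2.65 and 1.65 FPKM in the libraries labelled day 12, against 10.3, 8.95 and 9.45 FPKM in those of day 4. Both genes were several times lower in all 3 libraries labelled day 12 than in any of day 4, including replicate 3. The log2 changes were -2.18 ± 0.15 for Neurod1 and -1.91 ± 0.13 for Insm1 (SE, limma adjusted p = 8.58e-05 for both). On days 8 and 10 Neurod1 averaged 15.5 and 12.0 FPKM and Insm1 13.4 and 9.20 FPKM, near their day 4 levels.

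Gbx2, a homeobox gene of naive embryonic stem cells and of the midbrain-hindbrain boundary, had 5.17, 7.43 and 5.54 FPKM in the libraries labelled day 12, against 18.7, 18.7 and 19.1 FPKM in those of day 4. The 3 day 4 libraries agreed closely for this gene. The log2 change was -1.58 ± 0.13 (SE, limma adjusted p = 0.000278). Dll1, a ligand of Notch receptors, was also lower (0.705, 0.941 and 0.969 FPKM labelled day 12, against 3.2, 3.71 and 2.03 FPKM on day 4), by -1.32 ± 0.18 (SE, limma adjusted p = 0.00289). Neurod1, Insm1 and Dll1 are not on the neuroectoderm list, of whose 7 tested genes 2 fell and none rose (2 and 1 without day 4 replicate 3). The list's median was 0.06, equal to that of all genes, and the genes that fell were Sox1 and Olig2, with log2 changes of -0.62 and -0.47. Both calls ended without single libraries: that of Sox1 without any 1 of the libraries labelled day 12 or without day 4 replicate 2 (adjusted p up to 0.119), and that of Olig2 without replicate 3 labelled day 12 (limma adjusted p = 0.0605).

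Srgn, the core protein of the proteoglycan serglycin, had the largest fall among the named genes, -2.54 ± 0.34 on the log2 scale (SE, limma adjusted p = 0.00241). It had 0.176, 0.220 and 0.343 FPKM in the libraries labelled day 12, against 2.96, 2.56 and 7.09 FPKM in those of day 4, where replicate 3 was the highest. Its level was also low on day 10, at 0.391 FPKM. Gc, the vitamin D binding protein, had 0.498, 1.6 and 1.58 FPKM in the libraries labelled day 12, against 5.37, 5.26 and 6.32 FPKM in those of day 4 (log2 change -1.91 ± 0.25, SE, limma adjusted p = 0.00224). Selenop, a secreted carrier of selenium, fell by 1.20 on the log2 scale, with 2.58, 2.63 and 2.75 FPKM in the libraries labelled day 12, against 6.80, 7.0 and 6.46 FPKM on day 4. Selenop was chosen after its values were seen, as one of the 18 genes past the threshold with the 6 libraries alone.

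Among the largest rises of named protein-coding genes other than Dicer1, Fgf8, a secreted growth factor of the primitive streak, had 2.58, 3.48 and 2.57 FPKM in the libraries labelled day 12, against 0.601, 0.428 and 0.278 FPKM in those of day 4. Crtac1, a secreted protein of cartilage matrix, had 6.21, 5.99 and 6.80 FPKM in the libraries labelled day 12, against 2.43, 1.99 and 1.79 FPKM in those of day 4. Neither gene overlapped between the groups, which was a condition for naming them. Fgf8 rose by 1.85 ± 0.27 and Crtac1 by 1.42 ± 0.14 on the log2 scale (SE, limma adjusted p = 0.0035 and 0.000604). T (brachyury), a T-box factor of the primitive streak, rose by 1.6 ± 0.30 (SE, limma adjusted p = 0.0104), with 2.62, 3.65 and 2.73 FPKM labelled day 12, against 0.584, 0.436 and 0.973 FPKM on day 4. With a pseudocount of 0.1 its call was lost, as was that of Npb below. Fos, an immediate early subunit of the AP-1 factor, had 20.5, 12.4 and 12.7 FPKM in the libraries labelled day 12, against 3.45, 6.26 and 3.75 FPKM on day 4. It rose by 1.66 ± 0.22 (SE, limma adjusted p = 0.00248), and day 8 held an intermediate 11.8 FPKM.

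The other large rises were, like those of Fgf8, T and Crtac1, of genes with low levels. Rgcc, a cell cycle regulator, had 8.0, 3.29 and 6.4 FPKM in the libraries labelled day 12, against 0.736, 1.41 and 2.04 FPKM on day 4. Pdlim4, which encodes an actin-associated protein, rose by 1.31 on the log2 scale, and Rhox1, a homeobox gene of the X-linked reproductive cluster, by 1.34. Isg15, a ubiquitin-like modifier that interferon induces, had 2.73, 3.19 and 2.99 FPKM in the libraries labelled day 12, against 0.536, 0.764 and 0.745 FPKM on day 4 (1.56 ± 0.29, SE, limma adjusted p = 0.0108). Of the 16 tested genes on the interferon response list, Isg15 was the 1 that rose and 2 fell (3 and 2 of 15 without day 4 replicate 3). Ddx58, a sensor of viral RNA, fell by 0.50, and its call ended without any 1 library other than day 4 replicate 3 (adjusted p up to 0.0945). Npb, a neuropeptide, Copz2, a subunit of the coatomer coat, and Ndufa4l2, a mitochondrial protein that hypoxia induces, rose by 1.68, 1.51 and 1.42. Each lost its call without at least 1 library: Npb without replicate 2 labelled day 12 (adjusted p = 0.052), Ndufa4l2 without replicate 1 labelled day 12 (adjusted p = 0.0529), and Copz2 without replicate 1 or 3 labelled day 12 or day 4 replicate 1 (adjusted p up to 0.0705).

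Ninj1, an adhesion protein of the cell surface, was steady within each group and was picked after its values were seen, among the genes that passed with the 6 libraries alone. It had 23.6, 21.2 and 23.1 FPKM in the libraries labelled day 12, against 9.90, 10.8 and 10.6 FPKM in those of day 4. It rose by 1.08 ± 0.10 on the log2 scale (SE, limma adjusted p = 0.000423).

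Known targets with the seed match of both clusters showed no common shift. Of 13 tested members of the list, 1 rose and 2 fell, a share of 3 in 13 beside 8.72% of all genes, and the median log2 change was -0.01, beside 0.06 over all genes. Without day 4 replicate 3, 3 rose and 4 fell, beside 33.1% of all genes called, and the median was 0.01, beside 0.02. Lats2, a Hippo pathway kinase that restrains growth, carries in its 3′ UTR the 7 bases that pair with the seed followed by an A, 8 bases in all. They are shown in capitals with the letters around them. Cdkn1a, Rbl2, Tgfbr2 and Lefty2 also carry the 8 bases, while Casp2 and Ei24 carry the 7. One site is shown for each gene, read from the longest annotated 3′ UTR in GENCODE M21 transcripts.
Lats2: gtatggaaagAGCACTTAttttgtgg
Cdkn1a: tgggtgtcaaAGCACTTAgtgggtct
Rbl2: ttttcaataaAGCACTTAtaaatta
Tgfbr2: caaaacctaaAGCACTTAttttcaat
Lefty2: acccagtttaAGCACTTAcatgggta
Casp2: ataacctagaAGCACTTgtctctgc
Ei24: ctgtttttttAGCACTTgccagctc
A match describes the letters and is not by itself a functional site.

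Lats2 had 0.848, 0.913 and 0.942 FPKM in the libraries labelled day 12, against 0.905, 0.919 and 0.535 FPKM in those of day 4. The groups overlapped, and the log2 change was 0.14 ± 0.13 (SE, limma adjusted p = 0.542). Lats2 was much higher on the days between, at 5.68 FPKM on day 8 and 8.5 FPKM on day 10. Cdkn1a, the p21 inhibitor of cyclin-dependent kinases, had 41.6, 44.4 and 44.1 FPKM in the libraries labelled day 12, against 35.1, 34.7 and 57.9 FPKM in those of day 4. The 3 libraries labelled day 12 fell between the first 2 of day 4 and replicate 3, and the change of 0.07 ± 0.16 did not pass (SE, limma adjusted p = 0.836). Without day 4 replicate 3 it was 0.31 (limma adjusted p = 0.00206). Day 8 and day 10 held 89.4 and 133.0 FPKM of Cdkn1a.

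Tgfbr2, a receptor of TGF-beta, had 0.70, 0.555 and 0.630 FPKM in the libraries labelled day 12, against 0.932, 0.844 and 0.549 FPKM in those of day 4, and did not pass (-0.17 ± 0.14, SE, limma adjusted p = 0.519). Casp2, an apoptotic protease, had 2.49, 2.31 and 2.37 FPKM labelled day 12, against 2.94, 2.97 and 2.26 FPKM on day 4, and Rbl2, a pocket protein of the retinoblastoma family, had 0.883, 0.902 and 0.751 FPKM, against 0.910, 0.540 and 1.29 FPKM. The groups overlapped for all 3 genes, with adjusted p from 0.415 to 0.926 in limma. Casp2 passed without day 4 replicate 3, at -0.26 (limma adjusted p = 0.0252). On day 10 the means were 5.07 FPKM for Tgfbr2, 7.59 FPKM for Casp2 and 2.73 FPKM for Rbl2.

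**Figure D2:**
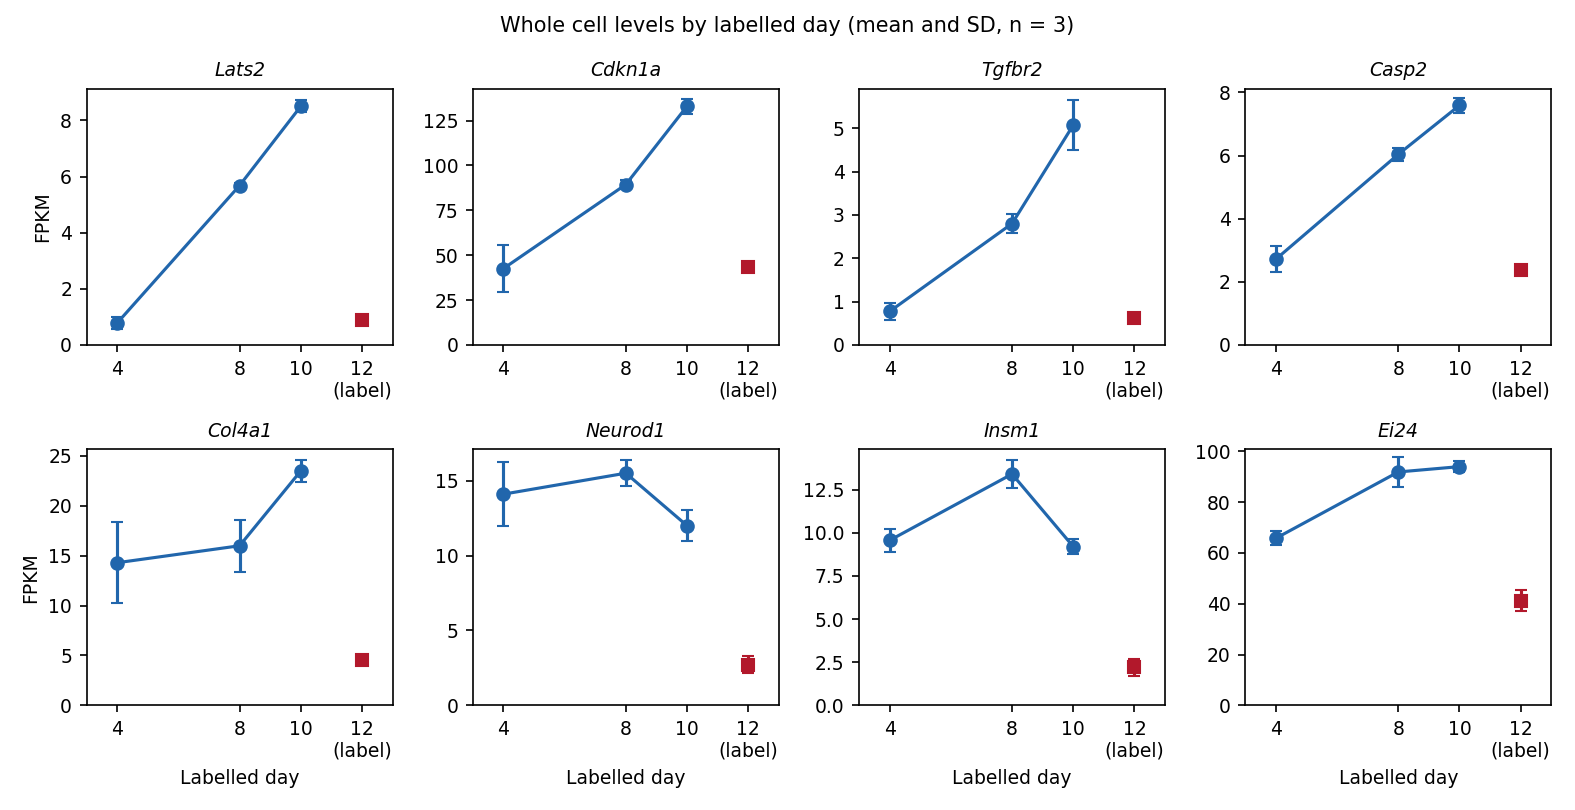
Mean FPKM (y, linear from 0) with SD (n = 3) of 8 genes by labelled day (x), with days 4, 8 and 10 joined in blue and the libraries labelled day 12 as a red square. Lats2, Cdkn1a, Tgfbr2 and Casp2 are highest on day 10 and near their day 4 level in the libraries labelled day 12, while Col4a1, Neurod1, Insm1 and Ei24 are lower there than on any other day.

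The named targets that passed the test went in both directions. Ei24, an endoplasmic reticulum protein induced by p53, had 45.9, 39.0 and 38.8 FPKM in the libraries labelled day 12, against 68.9, 64.8 and 63.7 FPKM in those of day 4. It fell by 0.67 on the log2 scale (SE 0.08, limma adjusted p = 0.00193). Lefty2, a secreted inhibitor of Nodal, had 52.9, 45.0 and 52.7 FPKM labelled day 12, against 32.5, 27.0 and 36.6 FPKM on day 4, and rose by 0.65 ± 0.12 (SE, limma adjusted p = 0.0108). Its call ended without replicate 3 labelled day 12 (limma adjusted p = 0.0507).

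Genes were also grouped by matches in their longest 3′ UTR alone, without regard to known targeting. Of 12268 tested genes with a UTR, 415 (3.38%) held the 8 bases AGCACTTA. Of these, 18 (4.34%) rose and 23 (5.54%) fell in the libraries labelled day 12, beside 6.39% and 3.49% of all genes with a UTR. Their median log2 change was -0.06, beside 0.05 over all. The 532 genes with the miR-17 family match GCACTTTA had a median of -0.08, and the 453 with the let-7 match CTACCTCA had 0.04. Genes with the miR-290 match had longer UTRs, with a median of 2811 bases beside 1109 bases over all, and the part of UTR length was not tested. Without day 4 replicate 3 the medians were -0.13 for miR-290, -0.19 for miR-17 and -0.05 for let-7 matches, beside 0.02 over all. In the cytoplasm, day 12 against day 0, the miR-290 and miR-17 groups each had a median of 0.31 and the let-7 group 0.01, beside -0.04 over all.

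Of 19 tested let-7 targets, Hmga2 rose and Myc and Tgfbr1 fell, and the list's median was 0 (-0.07 without day 4 replicate 3, with 2 higher and 7 lower). Myc, a transcription factor that drives growth, had 10.1, 15 and 9.98 FPKM in the libraries labelled day 12, against 21.7, 25.7 and 18.9 FPKM in those of day 4 (-0.91 ± 0.16, SE, limma adjusted p = 0.00936). Lin28a, the RNA-binding protein that blocks let-7 maturation, did not pass, with 112.0, 105.0 and 108.0 FPKM labelled day 12, against 103.0, 101.0 and 103.0 FPKM on day 4 (limma adjusted p = 0.55). The call of Hmga2, an architectural chromatin protein, ended without any 1 of the libraries labelled day 12 or day 4 replicate 1 (adjusted p up to 0.0697). Of 12 tested genes of the microRNA machinery beside Dicer1, 1 fell and none rose, with a median of -0.13 beside 0.06 over all genes. Without day 4 replicate 3, 6 fell and none rose, with a median of -0.37 beside 0.02. Tnrc6a, a partner of Argonaute and the gene that fell with all 6 libraries, changed by -0.55, a call that ended without replicate 3 labelled day 12 (limma adjusted p = 0.0715). Ago2, the Argonaute that can cut its targets, had 8.90, 5.35 and 5.44 FPKM in the libraries labelled day 12, against 13.3, 19.1 and 4.35 FPKM in those of day 4. Replicate 3 of day 4 alone was below the libraries labelled day 12, and the log2 change of Ago2 was -0.67 with it (limma adjusted p = 0.354) and -1.26 without it (limma adjusted p = 0.00277). Of 6 tested microRNA host transcripts, 1 fell both with and without day 4 replicate 3, and with it this was Mest, by 0.51, a call that ended without replicate 1 or 3 labelled day 12 (adjusted p up to 0.0524).

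Markers of extraembryonic endoderm were lower in the libraries labelled day 12. Of 13 tested members, 7 fell and 1 rose, beside 3.13% and 5.59% of all genes. The median log2 change was -0.80, beside 0.06 over all genes. Without day 4 replicate 3, 10 fell and 1 rose, beside 17.1% and 16.1%, with a median of -0.95 beside 0.02. Col4a1, a chain of basement membrane collagen, had 5.09, 4.14 and 4.43 FPKM in the libraries labelled day 12, against 17.5, 15.7 and 9.72 FPKM in those of day 4. Its partner chain Col4a2 had 2.90, 3.02 and 2.86 FPKM labelled day 12, against 9.50, 9.37 and 5.91 FPKM on day 4. Replicate 3 of day 4 was the lowest of its group for both chains and still above all libraries labelled day 12. The log2 changes were -1.51 ± 0.19 for Col4a1 and -1.33 ± 0.18 for Col4a2 (SE, limma adjusted p = 0.00196 and 0.00241).

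The 2 collagen genes are transcribed away from each other and their start regions overlap, so their promoters, from 250 bases before to 50 after each start, are shown because the pair fell together. The sequences are RefSeq's on GRCm38.p6, each on its gene's own strand, Col4a1 at chr8:11312777-11313076 on the minus strand and Col4a2 at chr8:11312555-11312854 on the plus strand. Capitals mark CCAAT boxes (CCAAT) and GC boxes (GGGCGG), searched on both strands.
Col4a1: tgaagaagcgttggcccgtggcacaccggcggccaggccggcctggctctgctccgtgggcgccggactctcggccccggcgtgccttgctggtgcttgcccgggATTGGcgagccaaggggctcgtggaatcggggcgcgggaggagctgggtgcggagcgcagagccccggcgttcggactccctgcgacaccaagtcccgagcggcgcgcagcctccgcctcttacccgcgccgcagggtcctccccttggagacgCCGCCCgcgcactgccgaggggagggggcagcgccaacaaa
Col4a2: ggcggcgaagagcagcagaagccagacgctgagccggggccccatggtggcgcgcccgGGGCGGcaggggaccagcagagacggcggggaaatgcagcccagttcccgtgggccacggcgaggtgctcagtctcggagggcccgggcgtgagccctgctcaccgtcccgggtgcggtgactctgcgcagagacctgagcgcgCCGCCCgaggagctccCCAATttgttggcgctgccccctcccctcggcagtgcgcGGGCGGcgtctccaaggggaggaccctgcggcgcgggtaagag
The Col4a1 window holds 1 CCAAT box and 1 GC box and that of Col4a2 holds 1 and 3. Of 27025 promoters of this length, 37.9% hold a CCAAT box and 35.9% a GC box, so neither motif sets the pair apart.

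Of the transcription factors on the same list, Gata4, Sox17 and Gata6 were low in both groups and fell, Sox7 did not pass (-0.60, limma adjusted p = 0.102), and Foxa2 and Hnf4a were below the level needed for testing. Gata4, a zinc finger factor of primitive endoderm, had 0.429, 0.556 and 0.386 FPKM labelled day 12, against 1.63, 1.29 and 2.21 FPKM on day 4 (-1.19 ± 0.17, SE, limma adjusted p = 0.0034). Sox17, an HMG box factor of endoderm, had 0.163, 0.0382 and 0.0955 FPKM, against 0.643, 0.503 and 0.714 FPKM on day 4, and fell by 0.90 on the log2 scale. Gata6, the partner of Gata4 in primitive endoderm, fell by 0.98, a call that ended without replicate 1 or 2 labelled day 12 (adjusted p up to 0.0547). Dab2, an endocytic adaptor of visceral endoderm, fell by 0.80. Cubn and Amn, which form a receptor in that tissue, differed in direction, with changes of -0.94 and 0.69, and both calls ended without several single libraries (adjusted p up to 0.0986 and 0.15). Of the list's 18 members, Ttr was at 0 in all 6 libraries, Afp was at 0 in all 3 labelled day 12 and Hnf4a in all 3 of day 4. The summed level of the list was 211.0 to 212.0 FPKM in the libraries labelled day 12, against 273.0 to 288.0 FPKM in those of day 4. Most of that sum was Sparc, a matrix glycoprotein that did not pass, with 133.0 to 144.0 FPKM labelled day 12, against 135.0 to 210.0 FPKM on day 4 (limma adjusted p = 0.507). In bulk RNA, fewer cells of a type and less RNA per cell cannot be told apart.

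Primed state genes mark cells that prepare for lineage choice. Of 15 members, 7 fell and 1, T, rose, with a median of -0.49 beside 0.06 over all genes (11 and 1, with a median of -0.57, without day 4 replicate 3). Among all genes 3.13% fell and 5.59% rose, and 17.1% and 16.1% without that library. Dnmt3a, a de novo DNA methyltransferase, had 7.64, 7.93 and 7.15 FPKM in the libraries labelled day 12, against 17.5, 18.6 and 12.2 FPKM in those of day 4. Otx2, a homeobox factor that drives exit from the naive state, had 5.16, 4.83 and 4.97 FPKM labelled day 12, against 9.03, 8.92 and 10.2 FPKM on day 4. Neither gene overlapped between the groups, and the log2 changes were -1.02 ± 0.14 and -0.85 ± 0.10 (SE, limma adjusted p = 0.00241 and 0.00165). On day 10 Dnmt3a held 9.51 FPKM and Otx2 2.69 FPKM, also below day 4. Nodal, a ligand of activin receptors, had 24.0, 26.5 and 26.2 FPKM labelled day 12, against 40.8, 40.2 and 37.3 FPKM on day 4 (-0.61 ± 0.08, SE, limma adjusted p = 0.00241). Lef1, a factor through which Wnt signals act, fell by 0.93. The calls of Sox3 and Fgf15 ended without any 1 library other than day 4 replicate 3 (adjusted p up to 0.119).

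Dnmt3l, the cofactor of the de novo DNA methyltransferases, had 92.8, 102.0 and 97.8 FPKM in the libraries labelled day 12, against 164.0, 152.0 and 156.0 FPKM in those of day 4. All 3 libraries labelled day 12 were below all 3 of day 4, and the log2 change was -0.69 ± 0.07 (SE, limma adjusted p = 0.000805). Dnmt3b, the second de novo enzyme, had 71.4, 73.9 and 66.9 FPKM labelled day 12, against 99.6, 108.0 and 67.4 FPKM on day 4. Its change was -0.35 with day 4 replicate 3 (limma adjusted p = 0.164) and -0.55 without it (limma adjusted p = 0.000203). Of the 12 genes on the list for DNA methylation and demethylation, 2 fell and none rose, and without that library 5 fell, Tet1 and Tet2, which oxidise methylcytosine, being the others. Of 11 tested germline genes known to be silenced by methylation, 1 fell and none rose (3 and none without day 4 replicate 3), namely Rpl10l, a ribosomal protein gene with near-identical relatives, whose FPKM is uncertain for that reason.

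Of 26 core and naive pluripotency genes, 5 rose and 2 fell, with a median of 0.06, equal to that of all genes (8 and 7 without day 4 replicate 3). Among all genes 5.59% rose and 3.13% fell, and 16.1% and 17.1% without that library. Klf4, a naive state factor, had 99.7, 100.0 and 94.2 FPKM in the libraries labelled day 12, against 58.1, 65.4 and 65.3 FPKM in those of day 4, and rose by 0.64 ± 0.08 (SE, limma adjusted p = 0.00241). Dppa3 (Stella), a maternal and germline factor, had 109.0, 119.0 and 130.0 FPKM labelled day 12, against 52.7, 55.7 and 89.4 FPKM on day 4. It rose by 0.89, a call that ended without replicate 3 labelled day 12 (limma adjusted p = 0.0523). The calls of Tcl1, Prdm14, Fgf4 and Lifr ended without several single libraries (adjusted p up to 0.138), while Dppa2 fell by 0.52 and kept its call.

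Pou5f1 (Oct4) had 373.0, 441.0 and 425.0 FPKM in the libraries labelled day 12, against 390.0, 386.0 and 453.0 FPKM in those of day 4, and Sox2 had 189.0, 162.0 and 175.0 FPKM, against 149.0, 153.0 and 189.0 FPKM. Neither passed (limma adjusted p = 0.953 and 0.549). Nanog, the third of these factors, had 256.0, 229.0 and 244.0 FPKM labelled day 12, against 163.0, 159.0 and 250.0 FPKM on day 4. Replicate 3 of day 4 lay among the libraries labelled day 12, and the change was 0.38 with it (limma adjusted p = 0.133) and 0.59 without it (limma adjusted p = 0.000143). These defining markers of embryonic stem cells were well above 100 FPKM in all 6 libraries.

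**Figure D3:**
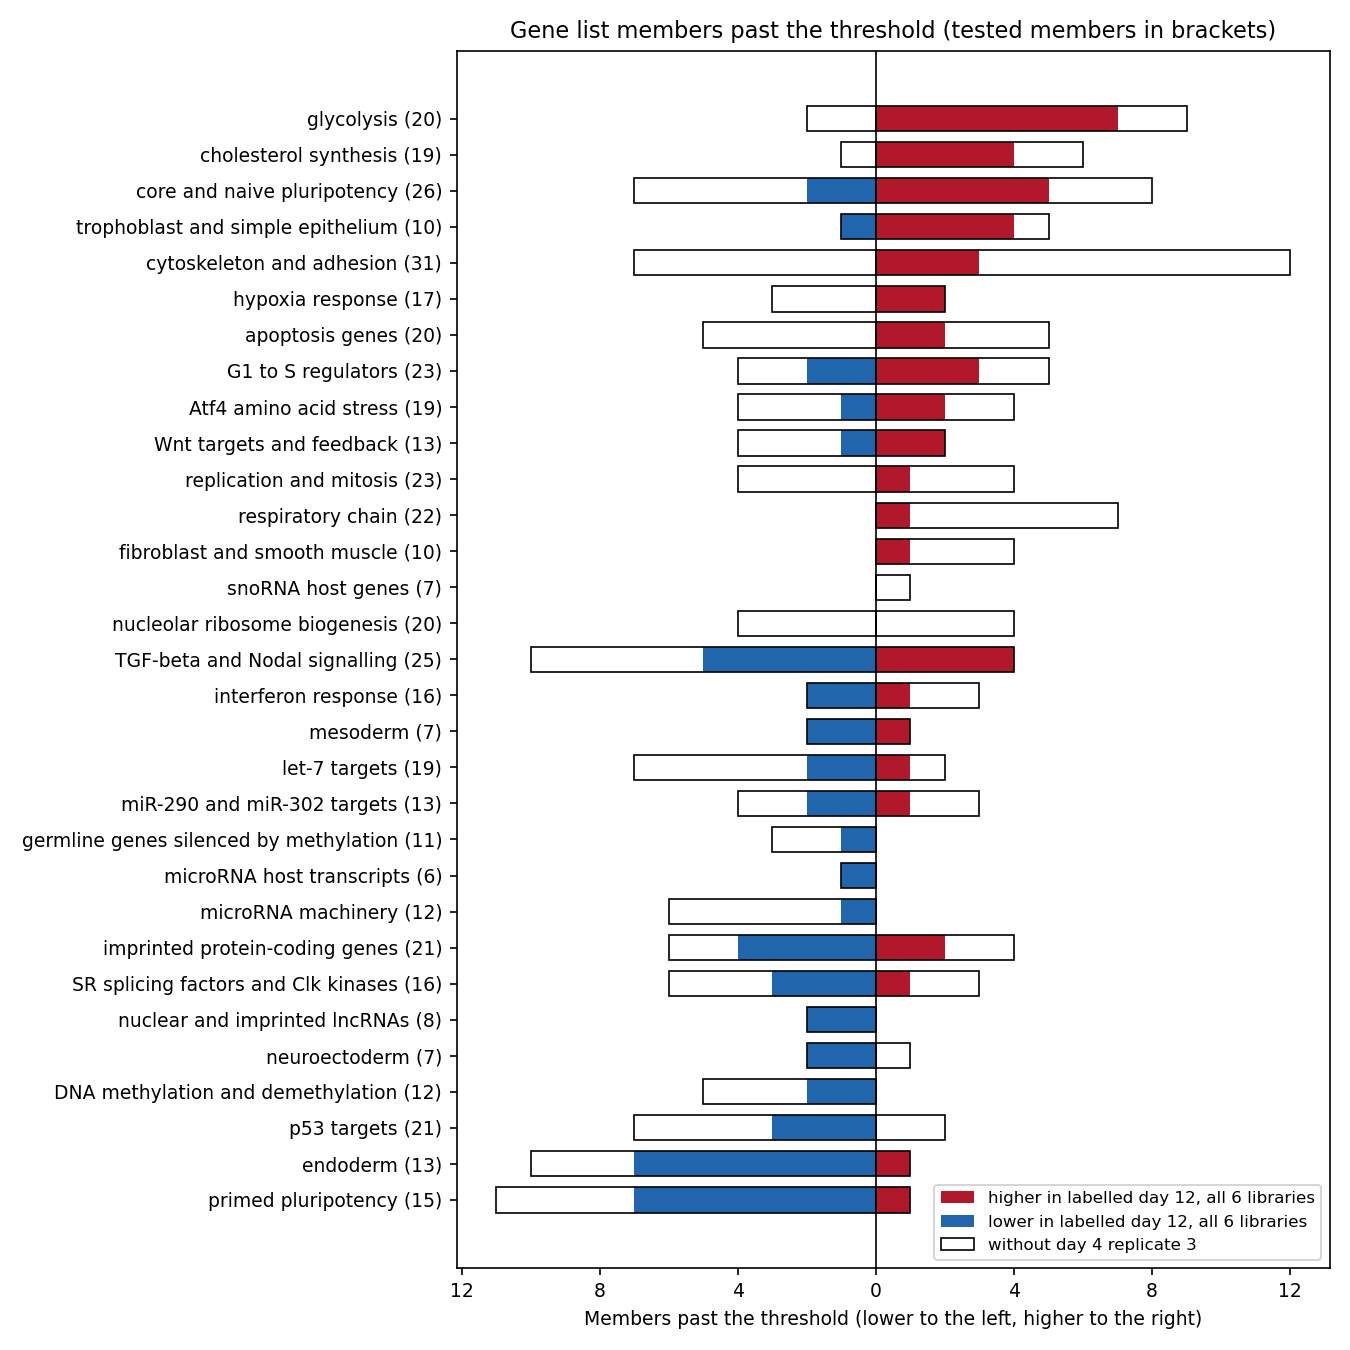
Number of members of each gene list past the threshold, with those higher in the libraries labelled day 12 drawn to the right (red) and those lower to the left (blue), and the same counts without day 4 replicate 3 as outlines; the number tested is in brackets. Glycolysis has 7 higher and 0 lower of 20, endoderm 1 and 7 of 13, and primed pluripotency 1 and 7 of 15, while most outlines extend in both directions. Over all genes 5.59% were higher and 3.13% lower. The lists were written with earlier results of these data known.

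Of 20 glycolytic enzymes 7 rose and none fell, beside 5.59% and 3.13% of all genes, with a median of 0.26 beside 0.06. Without day 4 replicate 3, 9 rose and 2 fell, beside 16.1% and 17.1%, with a median of 0.17 beside 0.02. Ldhb, a subunit of lactate dehydrogenase, had 322.0, 254.0 and 314.0 FPKM in the libraries labelled day 12, against 131.0, 130.0 and 179.0 FPKM in those of day 4 (1.02 ± 0.13, SE, limma adjusted p = 0.00202). Aldoc, an aldolase, had 19.8, 18.1 and 19.9 FPKM labelled day 12, against 9.74, 9.33 and 11.3 FPKM on day 4 (0.90 ± 0.11, SE, limma adjusted p = 0.00193). Hk1, the hexokinase that starts the pathway, rose by 1.02 and Eno2, an enolase, by 0.86. The groups did not overlap for these 4 genes. Gpi1, Pfkp and Pgk1 rose by 0.44, 0.39 and 0.36, and their calls ended without replicate 1 or 3 labelled day 12 (adjusted p up to 0.104). Gapdh, whose many pseudogenes make its FPKM uncertain, had 79.6, 81.0 and 77.3 FPKM labelled day 12, against 81.6, 74.2 and 60.5 FPKM on day 4, and did not pass (limma adjusted p = 0.486). Of 17 tested hypoxia genes, Egln1, an oxygen sensor, and Ndrg1 rose, by 0.46 and 0.50, and none fell (2 and 3 without day 4 replicate 3). Ndrg1 lost its call without any 1 of the libraries labelled day 12 or day 4 replicate 2 (adjusted p up to 0.143).

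Enzymes and regulators of cholesterol synthesis rose in 4 of 19 cases and fell in none, with a median of 0.23 (6 and 1, with a median of 0.09, without day 4 replicate 3). Over all genes 5.59% rose and 3.13% fell, and 16.1% and 17.1% without that library. Mvd, which makes isopentenyl pyrophosphate, had 34.2, 33.8 and 32.4 FPKM in the libraries labelled day 12, against 24.5, 22.0 and 16.8 FPKM in those of day 4. Insig1, which retains the sterol-sensing complex in the endoplasmic reticulum, had 62.3, 49.7 and 54.6 FPKM labelled day 12, against 38.4, 39.6 and 30.3 FPKM on day 4. Both were higher in every library labelled day 12, by 0.67 and 0.62 on the log2 scale (limma adjusted p = 0.0084 and 0.00912). Fdft1, the squalene synthase, rose by 0.44, and the call of Mvk (0.50) ended without replicate 2 or 3 labelled day 12 (adjusted p up to 0.115). For both metabolic lists the median lay nearer to that of all genes without day 4 replicate 3.

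Among trophoblast and simple epithelium genes 4 of 10 rose and 1 fell, with a median of 0.32 (5 and 1 of 11, with a median of 0.28, without day 4 replicate 3). The shares over all genes were 5.59% and 3.13%, and 16.1% and 17.1% without that library. Krt19, an epithelial keratin, had 48.1, 50.2 and 54.6 FPKM in the libraries labelled day 12, against 20.3, 20.4 and 29.6 FPKM in those of day 4 (1.13 ± 0.13, SE, limma adjusted p = 0.00129). Tfap2c, an AP-2 factor of trophoblast and germ cells, had 36.1, 28.6 and 31.9 FPKM labelled day 12, against 17.0, 19.2 and 21.2 FPKM on day 4, and rose by 0.74 (limma adjusted p = 0.00574). Krt8 rose by 0.63, a call that ended without replicate 2 labelled day 12 (limma adjusted p = 0.0589), and Esx1 by 0.52, a call that ended without any 1 of the libraries labelled day 12 (adjusted p up to 0.0883). Cdx2 and Gata3, which define trophoblast, and Elf5 were below the level needed for testing, and the summed level of the list was 424.0 to 468.0 FPKM labelled day 12, against 291.0 to 328.0 FPKM on day 4. Hand1, also on the mesoderm list, fell by 0.77, and its call ended without any of 4 single libraries (adjusted p up to 0.13). Of 7 tested mesoderm genes T rose and Hand1 and Twist1 fell, Twist1 by 0.99 (limma adjusted p = 0.00836), and 1 rose and 2 fell without day 4 replicate 3. Of 10 tested fibroblast and smooth muscle genes Thy1 rose (0.72) and none fell (4 and none without day 4 replicate 3). The call of Thy1 ended without replicate 1 or 3 labelled day 12 or day 4 replicate 1 (adjusted p up to 0.111). None of the 12 measured 2-cell-stage genes reached the level for testing.

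TGF-beta and Nodal pathway genes moved in both directions, with 4 of 25 higher and 5 lower (4 and 10 without day 4 replicate 3). Over all genes 5.59% were higher and 3.13% lower, and 16.1% and 17.1% without that library. Of the ligands, Tgfb1 had 6.6, 6.04 and 6.48 FPKM in the libraries labelled day 12, against 3.59, 3.61 and 3.01 FPKM in those of day 4, and rose by 0.82 ± 0.12 (SE, limma adjusted p = 0.00409), whereas Nodal fell. Tgfbr1, the signalling receptor, had 3.33, 2.86 and 3.16 FPKM labelled day 12, against 5.69, 5.32 and 4.19 FPKM on day 4, and fell by 0.61. Smad2, which carries the signal to the nucleus, fell by 0.65. Id1 and Id2, BMP-induced inhibitors of basic helix-loop-helix factors, fell by 0.89 and 0.66, and Id3 had a change of 0.44 whose call ended without several single libraries (adjusted p up to 0.116), as did that of Smad7 (0.60, adjusted p up to 0.0894). Id1 had 18.0, 25.5 and 19.1 FPKM labelled day 12, against 35.1, 32.6 and 50.1 FPKM on day 4. Of 13 tested Wnt targets T and Sp5 rose and Lef1 fell (2 and 4 without day 4 replicate 3), and the call of Sp5 ended without any 1 library other than day 4 replicate 3 (adjusted p up to 0.116).

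Of 23 regulators of the G1 to S transition 3 were higher and 2 lower, beside 5.59% and 3.13% of all genes. When day 4 replicate 3 was left out, 5 were higher and 4 lower, beside 16.1% and 17.1%. Ccne2, an S phase cyclin, had 3.95, 4.62 and 4.82 FPKM in the libraries labelled day 12, against 7.40, 7.31 and 8.47 FPKM in those of day 4, and fell by 0.73 (limma adjusted p = 0.00261). Ccnd3, a G1 cyclin, had 66.4, 69.5 and 68.7 FPKM labelled day 12, against 49.2, 49.8 and 46.8 FPKM on day 4, and rose by 0.48 (limma adjusted p = 0.00274). Rb1, the retinoblastoma protein gene, fell by 0.51, and the calls of E2f1 (0.41) and E2f2 (0.86) ended without any 1 library labelled day 12 (adjusted p up to 0.096). Of 21 tested p53 targets 3 fell and none rose (7 and 2 without day 4 replicate 3). Ccng1, an atypical cyclin, fell by 0.47 and Ei24 as above, and the call of Perp (-0.40) ended without any of 4 single libraries (adjusted p up to 0.168). Of 20 apoptosis genes 2 rose and none fell, and without day 4 replicate 3 5 rose and 5 fell. Bak1, which permeabilises the outer mitochondrial membrane, rose by 0.52, and its call ended without any 1 library labelled day 12 or day 4 replicate 1 (adjusted p up to 0.0888).

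The remaining lists are read beside the 8.72% of all genes past the threshold, or 33.1% without day 4 replicate 3. Of 31 cytoskeleton and adhesion genes 3 rose and none fell (12 and 7 of 32 without day 4 replicate 3), among them Cnn2, an actin-binding calponin, by 0.48. The call of Tagln2 ended without replicate 3 labelled day 12 (limma adjusted p = 0.0526), and that of Anxa2 without any 1 library other than day 4 replicate 3 (adjusted p up to 0.123). Of 16 SR splicing factors and Clk kinases 1 rose and 3 fell (3 and 6 without day 4 replicate 3): Srsf1 had 54.4, 52.8 and 54.3 FPKM in the libraries labelled day 12, against 83.4, 75.3 and 73.9 FPKM in those of day 4, and fell by 0.52 (limma adjusted p = 0.00259), and Clk1, a kinase of SR proteins, fell by 0.73. Clk3 (0.52) and Srsf6 (-0.34) lost their calls without any of 4 single libraries (adjusted p up to 0.086). Of 19 Atf4 amino acid stress genes (4 higher and 4 lower without day 4 replicate 3) Asns (0.43) and Phgdh (0.27) were higher and Atf4 (-0.34) was lower, and all 3 lost their calls without replicate 3 labelled day 12 or day 4 replicate 1 (adjusted p up to 0.113). Asns and Phgdh also lost theirs after median-of-ratios scaling. In the lists for the respiratory chain (22 tested) and for replication and mitosis (23), the 1 gene past the threshold in each, Uqcrc1 (0.30) and Aurkb (0.33), was higher and lost its call without any 1 library labelled day 12 (adjusted p up to 0.16). With day 4 replicate 3 left out, 7 respiratory chain genes rose and none fell, and 4 replication and mitosis genes rose and 4 fell. No gene passed in limma among 20 nucleolar ribosome biogenesis genes or 7 snoRNA host genes, while without day 4 replicate 3 4 of the nucleolar genes rose and 4 fell and 1 of 8 snoRNA host genes rose.

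Among imprinted transcripts H19 and Rian, both noncoding and expressed from the maternal allele, were lower in the libraries labelled day 12. H19 had 48.7, 44.0 and 46.4 FPKM in the libraries labelled day 12, against 84.2, 95.4 and 70.6 FPKM in those of day 4 (-0.83 ± 0.11, SE, limma adjusted p = 0.00257). Rian had 12.2, 10.8 and 11.7 FPKM labelled day 12, against 24.0, 25.3 and 15.3 FPKM on day 4 (-0.84 ± 0.15, SE, limma adjusted p = 0.00945). These were the 2 that passed among 8 tested nuclear and imprinted lncRNAs, of which 2 fell without day 4 replicate 3 as well. Of 21 tested imprinted protein-coding genes 2 rose and 4 fell, and 4 rose and 6 fell without day 4 replicate 3. Peg3, Peg10 and Peg12 had changes of -0.97, -0.91 and 0.51, and Grb10 and Zrsr1 of -0.47 and 0.30, and the calls of these 5 ended without several single libraries (adjusted p up to 0.144). Peg12 and Zrsr1, the 2 that rose, also lost their calls after median-of-ratios scaling and after quantile normalization.

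Of 1022 long noncoding RNA genes 42 passed (4.11%), and of 12356 protein-coding genes 1219 passed (9.87%), shares whose difference was not tested. Of 109 of the authors' own intergenic models, 12 passed (11%), beside 8.72% of all genes. Without day 4 replicate 3, 21.1% of these models passed, beside 33.1% of all genes. The shares were then 26.9% of long noncoding RNA genes and 36.1% of protein-coding genes. The model linc1393 had 58.6, 72.8 and 72.5 FPKM in the libraries labelled day 12, against 25.1, 25.9 and 25.5 FPKM in those of day 4 (1.39 ± 0.26, SE, limma adjusted p = 0.0108). The model linc1616 had 2.98, 1.39 and 4.35 FPKM labelled day 12 and is listed at 0 in all 3 libraries of day 4, a call that ended without replicate 3 labelled day 12 (limma adjusted p = 0.0526). Gm26763 fell by 1.89, with 0, 0.552 and 0.138 FPKM labelled day 12, against 2.35, 3.04 and 1.20 FPKM on day 4 (limma adjusted p = 0.00569), and AI662270 fell by 1.31. The calls of linc1283, Gm20544, Gm20412, Halr1, Platr5 and Gm16220 ended without at least 2 single libraries (adjusted p up to 0.132).

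**Figure D4:**
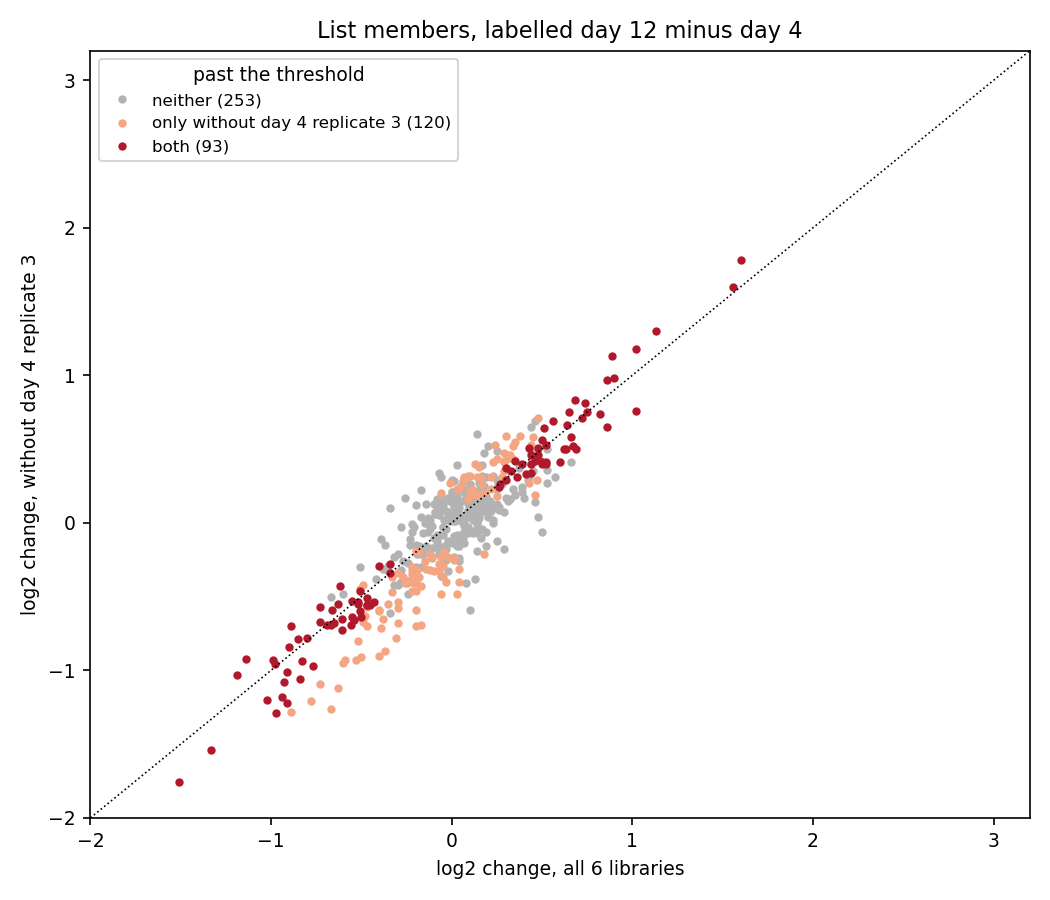
Log2 change, labelled day 12 minus day 4, of 466 tested list members without day 4 replicate 3 (y) against that with all 6 libraries (x), with equal change as a dotted line. The 93 members past the threshold with all 6 (dark red) also passed without that library, and 120 more (orange) passed without it alone.

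The fraction libraries, which share no library with these 6, were read for the same genes. In the cytoplasm, day 12 was set against day 0, with 37.2% of 15221 genes past the threshold (18.3% higher and 19% lower). Of the 844 genes that were higher in whole cells labelled day 12, 827 were tested in the cytoplasm, where 74 (8.95%) were higher and 370 (44.7%) lower on day 12. Of the 472 that were lower in whole cells labelled day 12, 457 were tested there, and 235 (51.4%) were higher and 22 (4.81%) lower. Among all genes tested in both, 17.3% were higher and 19.6% lower. Taken from the other list, 2.66% of the 2780 genes higher in the day 12 cytoplasm were higher in whole cells labelled day 12 and 8.45% were lower, and of the 2889 lower in the cytoplasm 12.8% were higher and 0.762% lower. In the nucleus the genes higher in whole cells had a median change of -0.43 and those lower 0.25, beside -0.10 over all genes.

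The same opposition was seen in single genes. Col4a1 rose by 1.86 in the day 12 cytoplasm (limma adjusted p = 2.82e-05), Gc by 2.95 (limma adjusted p = 7.84e-06) and Id1 by 3.22 (limma adjusted p = 0.00146), and all 3 fell in whole cells labelled day 12. Ldhb fell by 1.96 in the day 12 cytoplasm (limma adjusted p = 0.00415), Aldoc by 2.14 (limma adjusted p = 0.000147) and Ndufa4l2 by 3.86 (limma adjusted p = 2.04e-06), and all 3 rose in whole cells labelled day 12. Some genes moved the same way in both: Dll1 fell by 1.12 in the cytoplasm (limma adjusted p = 0.000369), Dnmt3l by 1.13 (limma adjusted p = 1.09e-05), and Krt8 rose by 1.15 (limma adjusted p = 0.00227). The 5 targets that did not pass between the 2 whole cell groups, Lats2, Cdkn1a, Rbl2, Casp2 and Tgfbr2, were higher in the day 12 cytoplasm by 3.15, 1.58, 1.3, 1.29 and 3.03 on the log2 scale (limma adjusted p of 0.000117 or less).

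**Figure D5:**
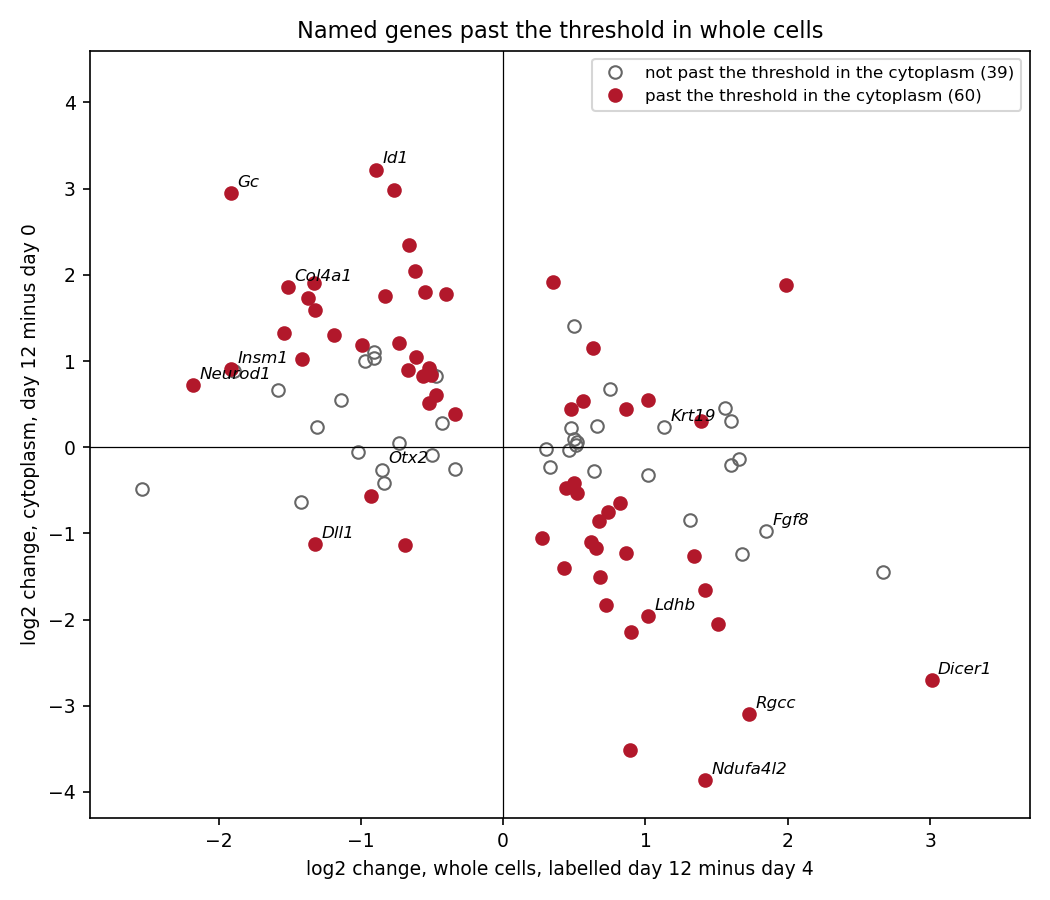
Log2 change in the cytoplasm, day 12 minus day 0 (y), against that in whole cells, labelled day 12 minus day 4 (x), for 99 named genes past the threshold in whole cells, filled where the cytoplasm also passed. Of 51 genes higher in whole cells 22 were lower and 8 higher in the cytoplasm, and of 48 lower in whole cells 27 were higher and 3 lower.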

How the data were processed

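The authors deposited an FPKM value per gene and library for 38123 genes, per the file headers. TopHat2 2.0.9, Cufflinks 1.3.0 and the build mm9 stand in the submitters' processing notes, with no role or order, and the annotation, strand setting and treatment of multiply matched reads are not stated in any source used here. The files labelled day 12 are in another gene order, so libraries were joined by gene identifier. Read totals are unknown, and relative depth came from the steps between low FPKM values. Per-gene tests used limma 3.58.1 (R 4.3.3, eBayes with trend, Benjamini-Hochberg at 0.05) on log2(FPKM + 0.5), which understates changes of low genes, where 1 of the 2 groups averaged 0.5 FPKM or more. One fit held the 12 whole cell libraries of days 4 to 12 and another the 12 fraction libraries. Named genes were the 12 largest rises and falls among protein-coding and lncRNA genes with a unique symbol that is not a Gm, Rik, LOC, AC, RP or pseudogene name, with at least 2 FPKM and non-overlapping replicates. To these came up to 4 members per list, 5 lncRNAs each way with any symbol, and a fixed set with Dicer1. Small RNA genes were not named. The members and the 32 lists were chosen with earlier results of these data known. Coordinates and UTRs came from GENCODE M21 on GRCm38 by gene identifier, and no mm9 coordinate was used. Tested on simulated data for this comparison (14071 genes), the limma step found 65% of shifts of 1 and 88.9% of shifts of 2 (log2), and 4 of its 157 calls were false. The simulated noise was independent between genes and had the same spread in all 12 libraries. It therefore held no library that stands apart as day 4 replicate 3 does, and its rates may not carry over. Alternatives were other pseudocounts, filters and scalings, other sets of libraries, a replicate block and each library left out. Python 3.11.15, numpy 2.4.6, pandas 2.3.3, scipy 1.17.1 and matplotlib 3.10.9 were used. Some results on single genes are not reported here.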

Additional observations from a re-analysis of the deposited data

How the results depend on the processing

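The 1316 genes past the threshold, and the 93 list members among them, stayed within 1.5 times of those counts with pseudocounts of 0.1 and 1, no filter, a mean of at least 1 FPKM, median-of-ratios scaling, quantile normalization, all 15 whole cell libraries, and protein-coding and lncRNA genes alone, from 1099 to 1854 genes. Similar counts do not mean the same genes: of 1442 past the threshold after median-of-ratios scaling, 1094 were among the 1316 in the same direction. Among the named genes, 9 lost their calls after that scaling, among them Tagln2, Anxa2, Aurkb, Uqcrc1 and Perp. After quantile normalization 7 lost them, with no filter 13, and with replicate number as a block 18. With the 6 libraries compared alone, 18 genes and 1 list member passed. Leaving out 1 library at a time gave 488 to 5033 genes and 44 to 213 list members, the highest without day 4 replicate 3 and the lowest without replicate 3 labelled day 12. Alternatives chosen after seeing the data left out day 4 replicate 3: with the remaining 5 libraries alone 3218 genes and 155 list members passed, and with median-of-ratios scaling 5091 and 211. No named gene past the threshold changed direction under these alternatives. With replicate number as a block 947 genes passed. The deviations of same-numbered libraries correlated at 0.222, -0.064 and 0.125, and those of differently numbered ones at -0.207 to 0.112. Whether the numbers pair the libraries cannot be told from 3 libraries per group. Seeds of miR-302a, miR-124, miR-1a and miR-122 were planned for comparison and not run. Read totals are not given, so counting error could not be computed, and low genes are the least certain.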

Other observations

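Genes of fibroblast growth factor signalling through ERK kinases and the immediate early genes below it were put on a list of 32 after their values had been seen, so the counts are a description. Of 30 tested, 8 rose and 6 fell in the libraries labelled day 12, beside 5.59% and 3.13% of all genes, with a median log2 change of -0.13. Some feedback inhibitors were among the falls, as were Myc and the ligand Fgf15. The inhibitors Spry1, Spry2, Spred2, Dusp4 and Dusp5 did not pass, nor did Etv4, Etv5 and Ccnd1. Without day 4 replicate 3, Spred2 (-0.65), Etv4 (-0.37), Etv5 (-0.34), Ccnd1 (-0.46) and the receptor Fgfr2 (-0.28) passed as falls (limma adjusted p up to 0.0434). Spry1, Spry2, Dusp4 and Dusp5 did not pass without it either. Spry4, a Sprouty inhibitor of the pathway, had 7.75, 8.23 and 6.93 FPKM in the libraries labelled day 12, against 21.7, 26.6 and 14.8 FPKM in those of day 4 (-1.37 ± 0.17, SE, limma adjusted p = 0.00193). Spred1, a related inhibitor, fell by 0.64 and Etv1, an ETS factor, by 0.92, and Dusp6, an ERK phosphatase, had 17.6, 20.3 and 15.9 FPKM labelled day 12, against 34.2, 35.3 and 22.5 FPKM on day 4. The call of Dusp6 (-0.74) ended without replicate 1 or 3 labelled day 12 or day 4 replicate 1 (adjusted p up to 0.0805). The rises held the ligands Fgf4, Fgf8 and Fgf17 and some immediate early genes, while Junb, Ier3 and Fosl1 did not pass. Of these last, Junb passed as a rise without day 4 replicate 3 (0.43, limma adjusted p = 0.0328). The calls of Fgf4 and Fgf17 ended without several single libraries (adjusted p up to 0.138). Jun, a partner of Fos, had 16.8, 13.5 and 13.1 FPKM labelled day 12, against 7.25, 8.91 and 7.35 FPKM on day 4 (0.84 ± 0.12, SE, limma adjusted p = 0.00271), Fosb rose by 1.31 and Ier2 by 0.48. Egr1 had a change of 0.96, a call that ended without any 1 of the libraries labelled day 12 or day 4 replicate 1 (adjusted p up to 0.087).

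Gene families chosen by symbol or function gave these counts. Of 336 genes named Zfp, mostly zinc finger factors, 6 rose and 24 fell, beside 5.59% higher and 3.13% lower among all genes. In either direction 8.93% of them passed, beside 8.72% of all genes, and their median was -0.12 beside 0.06. After median-of-ratios scaling 5 rose and 39 fell, where 670 of all genes were higher and 772 lower. Of 227 solute carriers 11 rose and 9 fell, beside 5.59% higher and 3.13% lower among all genes. The counts were 9 and 18 after median-of-ratios scaling. They were 10 and 21 after quantile normalization, where 756 of all genes were higher and 882 lower. Without day 4 replicate 3 they were 18 and 51, or 30.4% past the threshold, beside 33.1% of all genes. None of 75 cytosolic ribosomal protein genes passed in limma, while 30 were higher without day 4 replicate 3 (16.1% of all genes), the library in which these genes took the largest share of FPKM. Of 85 respiratory chain and ATP synthase genes 2 rose and 1 fell, and without day 4 replicate 3 37 rose and 1 fell, beside 5.59% and 16.1% of all genes higher.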
